A study of Mus musculus with 12 samples.

Results

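The comparison was between Treml4-/- and wild type (wt) bone marrow-derived macrophages (BMDM) after 12 h of lipopolysaccharide (LPS) at 100 ng/ml, a bacterial cell wall component that drives M1 polarization. It used 4 of the 12 libraries of the series, 2 biological replicates for each genotype, and all 12086 of 43280 genes with at least 1 CPM (reads of a gene scaled to the size of its library) in at least 2 of the 12 libraries. The other 8 libraries were unstimulated cells given vehicle (M0) and cells after LPS 8 h, again with 2 of each genotype. Both genotypes were on the C57BL6 background, and BMDM of both were grown from total bone marrow with M-CSF. The age and sex of the mice were not given in the sources used here, and neither was the design of the Treml4-/- allele in these cells. Whether the wt mice were littermates of the Treml4-/- mice was not given either. Loss of Treml4 therefore cannot be told apart from other differences between the 2 groups of mice.

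TREM-like receptors are single-pass cell surface proteins of myeloid cells, and several of them signal through the adaptor DAP12 (Tyrobp). LPS binds CD14 and TLR4 on macrophages, which switches on NF-kB, AP-1 and interferon regulatory factors, first for cytokine genes and later for interferon-stimulated genes and glycolysis, while many genes of the resting macrophage are switched off. TREML4 is known in mice as a receptor that binds dying cells and amplifies signalling by the RNA sensor TLR7.

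The 4 libraries at 12 h held 48008751 to 57608309 reads on genes, so that 3 reads were worth 0.0521 to 0.0625 CPM. All 10 macrophage markers were expressed, with summed levels of 10100 to 11270 CPM. Summed levels were 49.1 to 66.9 CPM for neutrophil markers, 16.7 to 31.6 CPM for dendritic cell markers, and at most 1.92 CPM for markers of B cells, T and NK cells, mast cells, fibroblasts and erythroid cells, with the genotypes overlapping in each. Xist and the Y-linked Ddx3y, Eif2s3y, Kdm5d and Uty together had 41.6 to 61.8 CPM. Of these genes Xist alone did not pass the filter. The mRNAs encoded by mitochondria took 0.582% and 0.602% of the reads in wt, against 0.776% and 0.642% in the knockout libraries, and their part in any result below was not tested. In bulk RNA, fewer cells that express a gene cannot be told apart from less of its RNA per cell. With 2 replicates, p-values rest on a spread shared over genes and libraries, and the wt replicates lay further apart than the Treml4-/- ones (SD of their log2 difference over genes 0.238 against 0.140).

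Treml4, the targeted gene (chr17:48264295-48275360), had 512 and 663 reads in the wt libraries, 9.82 and 13.2 CPM, and none in either Treml4-/- library. Its level was at least 184-fold lower in Treml4-/- cells when set against the floor of 3 reads. The labels of all 4 libraries thus matched the level of the targeted gene.

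At LPS 12 h, 16 of the 12086 genes (0.132%) were differentially expressed genes (DEG), with a Benjamini-Hochberg adjusted p under 0.05 by limma and a fold change of at least 1.4. In Treml4-/- cells 10 were higher (0.0827% of all tested genes) and 6 lower (0.0496%). The genes with higher levels were Pydc3, Gdf3, Pira2, 1700112E06Rik, Wwc2, Dio2, C77080, Gm14548, Plxna2 and Plxnd1. Those with lower levels were Treml4, Camk2b, Cdc42bpg, Rab4a, Gm15446 and Lipg. The 16 genes lay on 12 chromosomes, and for each of them the 2 libraries of a genotype lay on the same side of both libraries of the other. Each log2 difference is Treml4-/- minus wt on the scale of log2(CPM + 1). At low levels this scale makes differences look smaller than the ratio of CPM.

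**Figure D1:**
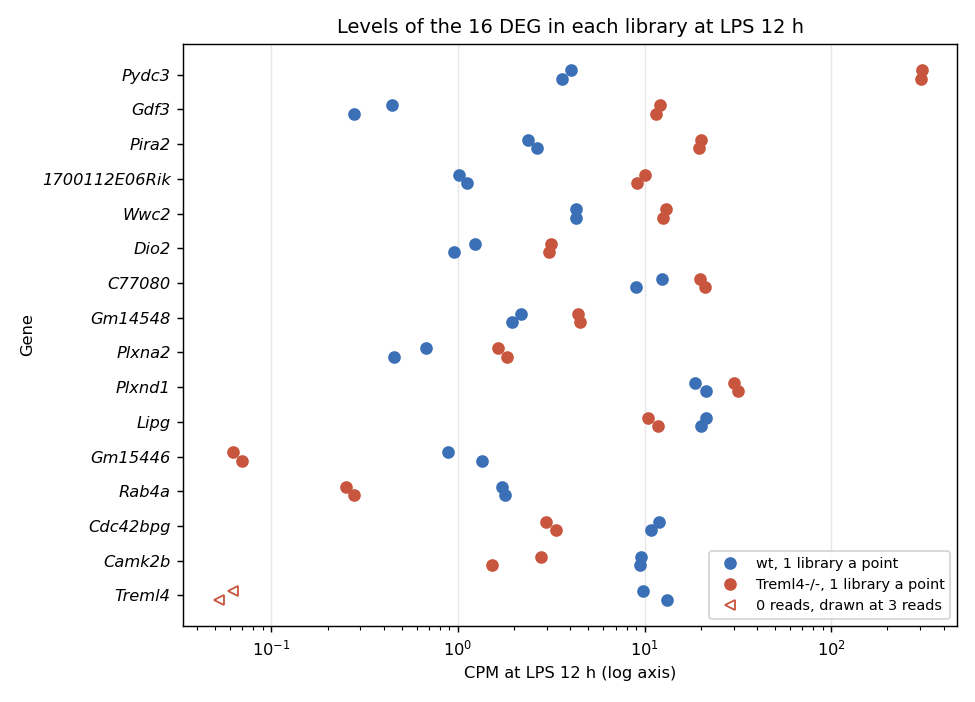
Level of each of the 16 DEG in the 4 libraries at LPS 12 h, with CPM on a log axis and 1 point for each library (blue wt, red Treml4-/-). The genotypes do not overlap for any of the 16 genes, with Pydc3 at about 4 CPM in wt and above 300 CPM in Treml4-/- cells, and Treml4 at 0 reads in Treml4-/- cells, drawn as open triangles at the level of 3 reads.

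The calls rested on few libraries. Treml4, Pydc3, Gdf3, Pira2, 1700112E06Rik and Wwc2 were DEG under every alternative tried, while each of the other 10 lost the call under at least 3 of them and kept its direction. Leaving out Treml4-/- replicate 1 left 7 DEG, leaving out Treml4-/- replicate 2 left 6 and leaving out wt replicate 2 left 6. Leaving out wt replicate 1 gave 79 DEG, 57 higher and 22 lower in Treml4-/- cells, although Plxnd1 and Lipg were then no longer DEG.

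Pydc3 had the largest difference. It belongs to the PYHIN family, interferon-inducible proteins with a pyrin domain, some of which also carry a HIN domain that binds DNA, and it is named Ifi208 in RefSeq. Pydc3 (chr1:173673675-173698395) had 4.01 and 3.61 CPM in wt and 307 and 301 CPM in Treml4-/- cells, a 79.8-fold difference of the means. Both Treml4-/- libraries were far above both wt libraries, with a log2 difference of 5.99 ± 0.13 (SE, adjusted p = 1.3e-09, limma). Pydc4, named Ifi213 in RefSeq, is a neighbour in the same cluster on chromosome 1. It had 175 and 209 CPM in wt and 193 and 183 CPM in Treml4-/- cells, so that the genotypes overlapped, with a log2 difference of -0.024 ± 0.27 (adjusted p = 0.995). The RefSeq promoters of both genes (GRCm38.p6, 250 bases before to 50 after the start) are shown because the pair differed in this way while their sequences hardly do. Pydc3 is chr1:173673415-173673714 on the plus strand and Pydc4 is chr1:173599223-173599522 on the minus strand. Capitals mark the bases that differ where they align.
Pydc3: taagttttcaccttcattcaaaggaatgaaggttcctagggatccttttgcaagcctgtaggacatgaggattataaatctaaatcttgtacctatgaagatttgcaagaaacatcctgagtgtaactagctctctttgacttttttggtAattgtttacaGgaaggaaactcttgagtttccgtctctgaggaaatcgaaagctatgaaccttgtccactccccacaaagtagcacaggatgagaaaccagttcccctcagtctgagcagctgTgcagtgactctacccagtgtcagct
Pydc4: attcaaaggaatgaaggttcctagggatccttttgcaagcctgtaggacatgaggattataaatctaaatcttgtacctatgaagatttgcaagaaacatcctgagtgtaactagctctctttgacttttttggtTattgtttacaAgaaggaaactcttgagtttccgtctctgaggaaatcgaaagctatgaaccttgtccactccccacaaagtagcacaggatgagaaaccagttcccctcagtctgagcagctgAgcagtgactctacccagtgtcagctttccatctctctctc
Over 285 aligned bases 282 were identical and 3 differed (98.9% identity). The interferon-stimulated response element, searched on both strands as TTTC, any 2 bases and TTTC, stood in both promoters and in 3.44% of 32851 RefSeq promoters. TGANTCA (AP-1, in 7.81% of promoters) and TTCNNNGAA (GAS, in 8.30%) stood in neither.

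The remaining PYHIN genes did not move with Pydc3. Of 11 members tested, Pydc3 was the only DEG, and the other 10 had log2 differences of -0.22 (Pyhin1) to 0.09. Their genotype differences were small although several were expressed more strongly than Pydc3, such as Ifi205 with 381 and 387 CPM in wt and 361 and 323 CPM in Treml4-/- cells. Of the windows of 126 bases, the length of 1 read, in the Pydc3 transcript, 4.71% were also found in transcripts of other genes.

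Pira2 and Gm14548 are paired immunoglobulin-like receptor A genes, which encode activating receptors of myeloid cells, and both were higher in Treml4-/- cells. Pira2 (chr7:3836812-3845051) had 2.36 and 2.64 CPM in wt and 20.0 and 19.6 CPM in Treml4-/- cells, a log2 difference of 2.57 ± 0.10 (SE, adjusted p = 1.9e-07, limma). Gm14548 (chr7:3884242-3898120) had 2.19 and 1.95 CPM in wt and 4.39 and 4.51 CPM in Treml4-/- cells, a log2 difference of 0.83 ± 0.12 (SE, adjusted p = 0.0239, limma). Their RefSeq promoters (chr7:3845002-3845301 and chr7:3898092-3898391, both on the minus strand) are shown because both genes moved the same way, again with differing bases in capitals.
Pira2: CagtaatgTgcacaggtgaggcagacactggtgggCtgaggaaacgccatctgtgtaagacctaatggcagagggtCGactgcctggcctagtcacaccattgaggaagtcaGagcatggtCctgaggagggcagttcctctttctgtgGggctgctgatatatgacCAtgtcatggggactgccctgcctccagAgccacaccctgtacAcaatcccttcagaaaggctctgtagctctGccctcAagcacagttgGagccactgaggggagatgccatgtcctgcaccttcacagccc
Gm14548: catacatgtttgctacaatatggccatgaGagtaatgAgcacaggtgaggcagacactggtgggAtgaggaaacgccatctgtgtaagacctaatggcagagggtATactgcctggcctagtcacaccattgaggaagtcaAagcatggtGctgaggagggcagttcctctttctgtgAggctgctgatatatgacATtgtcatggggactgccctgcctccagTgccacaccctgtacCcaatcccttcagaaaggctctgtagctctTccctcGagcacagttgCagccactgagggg
Over 271 aligned bases 15 differed (94.5% identity), and none of the 3 motifs stood in either. Both counts are uncertain, since 82.6% of the read-length windows of Pira2 and 46.2% of those of Gm14548 also occurred in transcripts of other genes, for Pira2 most often in Gm15922 and Gm14548. Gm15922 itself had 7.94 and 8.55 CPM in wt and 9.54 and 9.77 CPM in Treml4-/- cells (log2 difference 0.21, adjusted p = 0.808). Pirb, the inhibitory receptor of the family, had 866 and 876 CPM in wt and 885 and 904 CPM in Treml4-/- cells (log2 difference 0.038, adjusted p = 0.958). Of 9 tested members of the PIR and LILR family 2 were DEG, beside 0.132% of all tested genes. The list was chosen with earlier results of these data known and the 2 DEG share read-length windows, so this share is no test of the family. The log2 differences of 9 of 9 were positive with a median of 0.28, beside a median of 0.049 and 64.4% positive values over all tested genes, but Pirb and Lilrb4 were negative with median of ratios scaling and with the correction for GC content and length, and Lilrb4 without Treml4-/- replicate 1.

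Gdf3, 1700112E06Rik and Wwc2 were also higher, by more than the spread between replicates. Gdf3 (chr6:122605403-122610087), a TGF-beta superfamily ligand that also inhibits BMP signalling and is made by macrophages, had 0.441 and 0.278 CPM in wt and 12.0 and 11.5 CPM in Treml4-/- cells. Its log2 difference was 3.23 ± 0.16 (SE, adjusted p = 1.5e-06, limma), while the other 4 TGF-beta superfamily ligands that were tested lay between -0.12 and 0.20. 1700112E06Rik (chr14:22019712-23056085), annotated as Lrmda, had 1.02 and 1.11 CPM in wt and 10.1 and 9.04 CPM in Treml4-/- cells (log2 difference 2.35, adjusted p = 9.0e-07). Wwc2 (chr8:47823959-47990924), which encodes a WW and C2 domain scaffold of the Hippo pathway, had 4.30 and 4.31 CPM in wt and 13.1 and 12.6 CPM in Treml4-/- cells (log2 difference 1.38, adjusted p = 2.0e-04). None of the read-length windows of these 3 transcripts occurred in another gene.

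Camk2b, Cdc42bpg, Rab4a and Gm15446 were lower in Treml4-/- cells. Camk2b (chr11:5969644-6066362), the beta subunit of calcium/calmodulin-dependent kinase II, had 9.61 and 9.47 CPM in wt and 2.79 and 1.53 CPM in Treml4-/- cells. Its log2 difference was -1.77 ± 0.21 (SE, adjusted p = 0.00605, limma), whereas the other 6 tested kinases of the group lay between 0.02 and 0.34 (Camk2d), and none was a DEG. Cdc42bpg (chr19:6306456-6325652), a kinase that binds CDC42 and acts on actomyosin, had 11.9 and 10.8 CPM in wt and 2.96 and 3.33 CPM in Treml4-/- cells (log2 difference -1.58, adjusted p = 0.00621). Rab4a (chr8:123805985-123835287), a small GTPase of early endosomes that returns receptors to the surface, had 1.73 and 1.79 CPM in wt and 0.25 and 0.278 CPM in Treml4-/- cells (log2 difference -1.12, adjusted p = 0.00605). Gm15446 (chr5:109923400-109943936), a protein coding gene, had 0.882 and 1.35 CPM in wt and 0.0625 and 0.0694 CPM in Treml4-/- cells (log2 difference -0.98, adjusted p = 0.00723). Of its read-length windows 13.4% also occurred in Zfp932, which had 0.786 and 1.17 CPM in wt and 1.27 and 1.16 CPM in Treml4-/- cells (log2 difference 0.17, adjusted p = 0.905). Without Treml4-/- replicate 2 or without wt replicate 2 none of these 4 genes was a DEG, and without Treml4-/- replicate 1 Camk2b alone still was.

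Most of the 16 genes differed between the genotypes before LPS was added. Of the 16, 8 were DEG at M0, LPS 8 h and LPS 12 h (Treml4, Camk2b, Cdc42bpg, Gm14548, Wwc2, 1700112E06Rik, Pira2 and Gdf3), 2 at M0 and 12 h (Rab4a and Gm15446), 1 at 8 h and 12 h (Pydc3) and 5 at 12 h alone (Lipg, Plxnd1, Plxna2, C77080 and Dio2). Each state was tested on its own libraries, with a common estimate of the spread, and 12 genes (0.0993%) were DEG at M0 and 11 (0.0910%) at 8 h. Gdf3 fell with LPS in both genotypes, from a mean of 2.33 to 0.359 CPM in wt and from 52.8 to 11.8 CPM in Treml4-/- cells. Rab4a fell likewise, from 10.5 to 1.76 CPM in wt and from 1.89 to 0.264 CPM in Treml4-/- cells. Camk2b instead rose with LPS, from 3.61 to 9.54 CPM in wt and from 0.769 to 2.16 CPM in Treml4-/- cells. All of these changes with LPS passed the test against M0 in both genotypes, a test that 76.7% of all tested genes passed in wt cells (16.2% higher and 60.4% lower at 12 h). The excess of lower genes went with the scaling by library size, since with median of ratios scaling 66.5% passed, 33.8% higher and 32.7% lower, and the median of all genes in wt moved from -0.77 to 0.0014. The directions for Gdf3, Rab4a and Camk2b were the same with that scaling, quantile normalization and the correction for GC content and length, although in the last Gdf3 in wt (-0.48) and Rab4a in Treml4-/- cells (-0.31) changed by less than 1.4-fold.

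**Figure D2:**
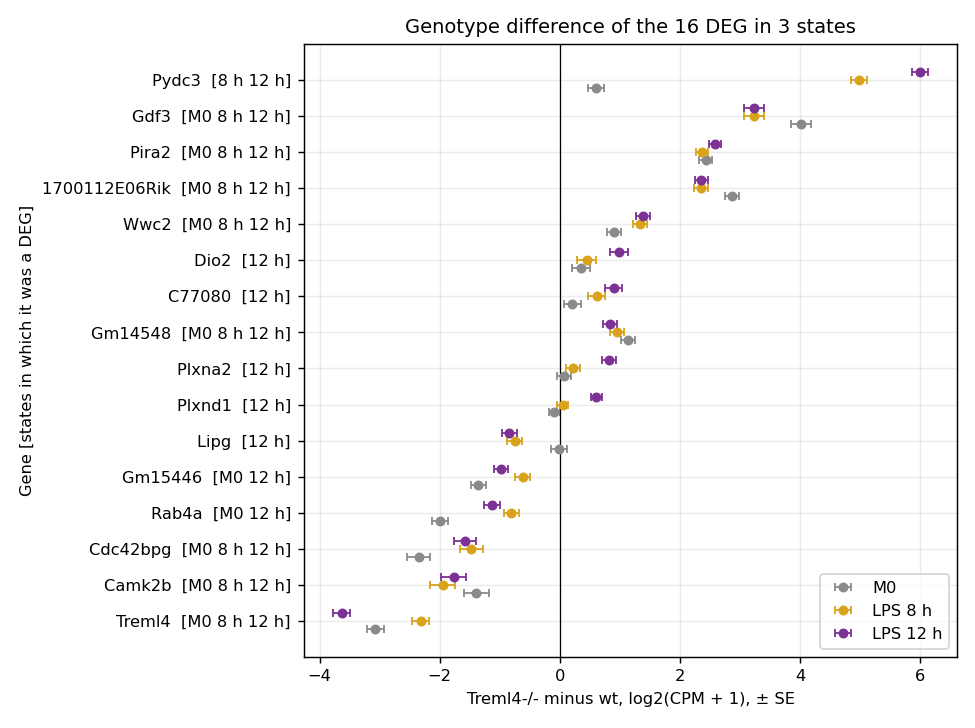
Genotype difference of the 16 DEG at M0, LPS 8 h and LPS 12 h, as Treml4-/- minus wt on the log2(CPM + 1) scale with the standard error from limma. The states in which each gene was a DEG stand in brackets. Pydc3 moves from 0.60 at M0 to 5.99 at 12 h, while Pira2 stays between 2.37 and 2.57.

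Pydc3 had more reads in both Treml4-/- libraries than in both wt libraries in all 3 states. At M0 it was close to silent, with 1 and 4 reads (0.0193 and 0.0787 CPM) in wt and 27 and 34 reads (0.550 and 0.636 CPM) in Treml4-/- cells. The ratio of these levels was 12.2, with an exact 95% interval of 4.96 to 39.0 that covers counting error only, and the log2 difference of 0.60 at M0 is small because 1 CPM was added to each level (adjusted p = 0.389, limma). With a pseudocount of 0.1 and on the deposited log2 CPM Pydc3 was a DEG at M0 as well (adjusted p = 3.66e-04 and 0.00426). At 8 h it had 8.50 and 10.1 CPM in wt and 285 and 366 CPM in Treml4-/- cells. From M0 to 12 h the mean CPM went up 77.8-fold in wt and 513-fold in Treml4-/- cells.

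This genotype effect was larger at 12 h than at M0 under every setting tried, but the size of the growth and whether it passed the test depended on the scale. On log2(CPM + 1) it was larger at 12 h than at M0 by 5.39 ± 0.19 (SE, adjusted p = 1.7e-07, limma), and 1 of 12086 genes (0.00827%) passed this test, namely Pydc3. With a pseudocount of 0.1 the value was 4.04 (adjusted p = 1.58e-04), but on the deposited log2 CPM it was 2.58 ± 0.59 and with voom 2.74 ± 0.72, and neither passed (adjusted p = 0.867 and 1). Before adjustment the p-values of Pydc3 under these last settings were 0.0011 and 0.003 (limma). Between 12 h and 8 h, its genotype effect differed by 1.01 ± 0.19, which did not pass (unadjusted p = 2.4e-04, adjusted p = 0.948, limma).

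Lipg, Plxnd1, Plxna2, C77080 and Dio2 were DEG at 12 h alone. Lipg (chr18:74939322-74961263), endothelial lipase, which cleaves phospholipids of high density lipoproteins, was nearly silent at M0, with at most 0.0386 CPM. At 8 h it had 51.5 and 39.9 CPM in wt and 27.3 and 25.6 CPM in Treml4-/- cells, and at 12 h 21.4 and 20.0 CPM in wt and 10.5 and 11.8 CPM in Treml4-/- cells. The genotypes did not overlap at either time, with a log2 difference of -0.76 at 8 h (adjusted p = 0.101) and -0.84 ± 0.13 (SE) at 12 h (adjusted p = 0.0418, limma).

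Plxnd1 and Plxna2 encode plexins, the receptors of semaphorins, which steer cell migration and the cytoskeleton. Plxnd1 (chr6:115954811-115995005) had 434 and 492 CPM in wt and 437 and 429 CPM in Treml4-/- cells at M0, and 14.6 to 15.7 CPM in all 4 libraries at 8 h. At 12 h it had 18.7 and 21.3 CPM in wt and 30.3 and 31.5 CPM in Treml4-/- cells, a log2 difference of 0.60 ± 0.09 (SE, adjusted p = 0.0418, limma). The genotypes thus overlapped at M0, lay close together at 8 h and were apart at 12 h. Plxna2 (chr1:194618218-194816869) had 33.4 to 37.1 CPM in the 4 libraries at M0 and 0.39 to 0.701 CPM at 8 h. At 12 h it had 0.671 and 0.457 CPM in wt and 1.65 and 1.84 CPM in Treml4-/- cells, a log2 difference of 0.81 ± 0.12 (SE, adjusted p = 0.0241, limma). Of 17 tested plexins, semaphorins and neuropilins these 2 were DEG, beside 0.132% of all tested genes. This list was chosen with earlier results of these data known, so the share is no test of the family. The median of the 17 was 0.031, beside 0.049 for all tested genes, and below 0 with median of ratios scaling, quantile normalization or the GC correction.

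C77080, a gene known by its expressed sequence tag, and Dio2, the deiodinase that activates thyroid hormone, completed the group. C77080 (chr4:129219578-129261404) had 212 to 275 CPM at M0, and at 12 h 12.3 and 8.95 CPM in wt and 19.8 and 21.04 CPM in Treml4-/- cells (log2 difference 0.90, adjusted p = 0.0418). At 8 h its log2 difference was 0.61 (adjusted p = 0.124), with both Treml4-/- libraries above both wt libraries as well. Dio2 (chr12:90724552-90738438) had 1.23 and 0.953 CPM in wt and 3.17 and 3.09 CPM in Treml4-/- cells at 12 h (log2 difference 0.98, adjusted p = 0.0418), and 0.44 was its log2 difference at 8 h (adjusted p = 0.176).

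**Figure D3:**
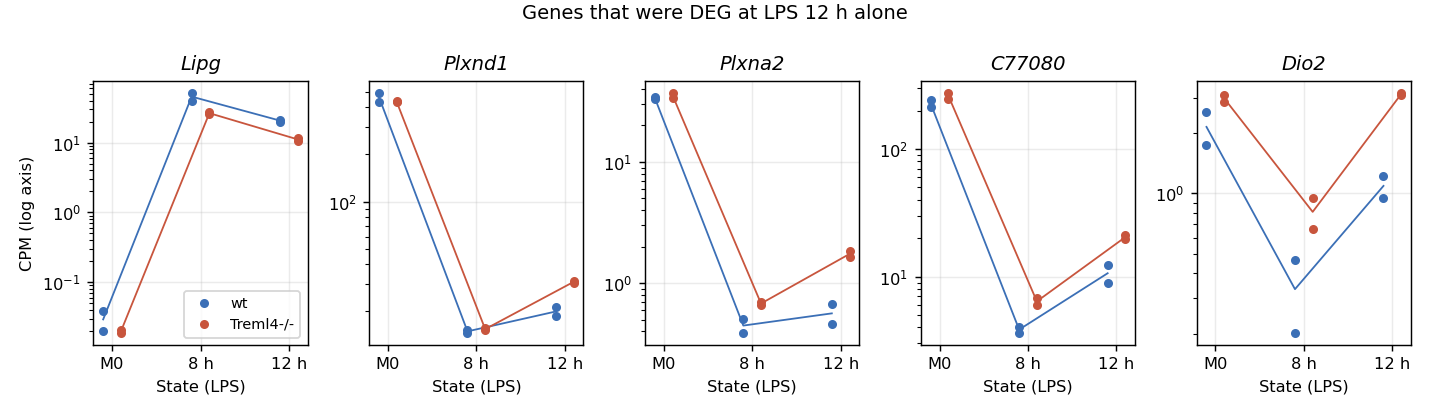
CPM on a log axis of the 5 genes that were DEG at LPS 12 h alone, in unstimulated cells (M0) and after 8 h and 12 h of LPS; points are libraries, lines join the means of the 2 wt (blue) and 2 Treml4-/- (red) libraries. Plxnd1, Plxna2 and C77080 drop with LPS in both genotypes and are higher in Treml4-/- cells at 12 h, while Lipg goes up with LPS and is lower there.

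No gene could be called particular to 12 h by a direct test against 8 h. Testing the change of the genotype effect from 8 h to 12 h gave 0 DEG in limma and 0 under every alternative including voom, with 388 genes (3.21%) at an unadjusted p under 0.05. For Plxnd1 this difference was 0.56 ± 0.13 (SE, unadjusted p = 0.00137, adjusted p = 0.948, limma), for Plxna2 0.60 ± 0.16 (unadjusted p = 0.00397, adjusted p = 0.948) and for Dio2 0.54 ± 0.22 (unadjusted p = 0.0291, adjusted p = 0.948). For Lipg it was -0.085 ± 0.19 and for C77080 0.29 ± 0.20, both with an adjusted p above 0.9. Against M0 the adjusted p of all 5 genes was 1. Each of the 5 lost its call at 12 h under 8 to 12 of the alternatives that kept every M0 and 8 h library. Leaving out either Treml4-/- replicate at 12 h or wt replicate 2 at 12 h was among these. Each of the 5 also lost it when any Treml4-/- library at M0 or 8 h was left out, and C77080 when any M0 or 8 h library was. Of the other 11 DEG, Gm14548 lost it under 8 of the alternatives counted first, and also without either Treml4-/- replicate at M0. The rest lost it under 0 to 6 and kept it whichever M0 or 8 h library was left out. With the fits that left out such a library counted too, Lipg was a DEG at 8 h under 4 alternatives and C77080 under 2.

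Beyond the DEG, the sign of the genotype difference at 12 h went with how a gene responded to LPS. Genes were sorted on the 8 libraries at M0 and 8 h alone, as induced or repressed at least 4-fold by LPS with an adjusted p under 0.05, on CPM scaled to library size. The 662 LPS-induced genes had a median log2 difference of -0.11 at 12 h, and 26.6% were positive, beside 64.4% of all tested genes. The 1363 LPS-repressed genes had a median of 0.12 with 78.7% positive, and the other 10061 genes a median of 0.049 with 64.9% positive. Each of the 4 pairings of a Treml4-/- with a wt library gave a negative median for the induced genes, from -0.16 to -0.041, and a positive one for the repressed genes, from 0.10 to 0.13. The pairings reuse the same libraries and are not independent. Between replicates (2 minus 1) the median for the induced genes was 0.097 in wt, about the size of the genotype difference, and -0.016 in Treml4-/- cells. For the repressed genes it was -0.0011 and -0.0031. Median of ratios scaling, quantile normalization, voom, the replicate block, a pseudocount of 0.1, the correction for GC content and length and the omission of any 1 of the 4 libraries left both signs in place, with medians of -0.20 to -0.054 and of 0.059 to 0.19. At 8 h the median was 0.0051 for the induced and 0.088 for the repressed genes, beside 0.068 for the other genes. Among the induced genes 1 DEG was higher (Pydc3) and 1 lower (Lipg).

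**Figure D4:**
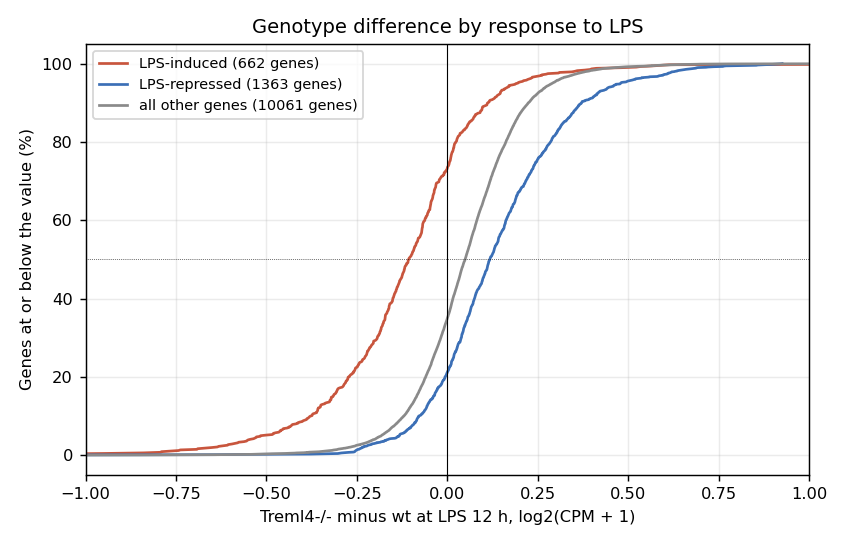
Cumulative share of genes (percent) against the genotype difference at LPS 12 h, Treml4-/- minus wt in log2(CPM + 1), shown from -1 to 1, for genes induced or repressed by LPS at 8 h and all others. The curve of the 662 induced genes lies to the left of 0 at its middle (-0.11) and that of the 1363 repressed genes to the right (0.12).

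Genes with an unadjusted p under 0.05 and at least 1.4-fold change were 212 (1.75% of all tested), 147 higher (1.22%) and 65 lower (0.538%) in Treml4-/- cells. Of the LPS-induced genes 31 (4.68%) were lower and 3 (0.453%) higher by this measure, and of the LPS-repressed genes 65 (4.77%) were higher and 3 (0.220%) lower. The values below are for gene lists drawn up by function, 42 in all. Counts of signs in them are to be read beside all tested genes, of which 64.4% were positive with a median of 0.049. Both hold for scaling by library size, and the signs depend on the scaling. The median of all tested genes was -0.022 with median of ratios scaling, -0.0016 with quantile normalization and -0.013 with the correction for GC content and length. None of their members was a DEG other than those named above, so that the values describe levels and show no change that passed the test.

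Among receptors, Trem1, which amplifies TLR responses through DAP12, had 4.33 and 5.76 CPM in wt and 3.17 and 1.84 CPM in Treml4-/- cells (log2 difference -0.80, adjusted p = 0.140). Trem3 had -0.29, and besides Treml4 none of the 9 tested members of the TREM family and its adaptors was a DEG. Tlr4, the LPS receptor, had a log2 difference of 0.48 (adjusted p = 0.568) and its co-receptor Cd14 one of -0.62 (adjusted p = 0.435). The median of 22 Toll-like receptors and adaptors was 0.0060, with 12 positive and 10 negative values, and turned negative with median of ratios scaling, quantile normalization and the GC correction and without Treml4-/- replicate 1 or wt replicate 1. Cd36, a scavenger receptor for oxidized lipoproteins, had 300.3 and 251 CPM in wt and 449 and 339 CPM in Treml4-/- cells (log2 difference 0.51, adjusted p = 0.267). Of 14 C-type lectin and scavenger receptors 13 were positive, beside 64.4% of all tested genes, with a median of 0.16.

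Signalling and secreted factors mostly had negative values. Of 18 AP-1 and immediate early factors 14 were negative and 7 (38.9%) had an unadjusted p under 0.05 in that direction, beside 2.08% of all genes, with a median of -0.22 that was -0.075 without wt replicate 2. Ier2 had a log2 difference of -0.58 (adjusted p = 0.310) and Egr1 one of -0.48, whereas Egr2 had 0.50. Without wt replicate 1, which leaves 1 wt library, the value for Ier2 was -0.87. Of 18 inflammatory cytokines 15 were negative, with a median of -0.17 that was -0.064 without wt replicate 2. Il6 had 41.5 and 72.8 CPM in wt and 34.3 and 28.7 CPM in Treml4-/- cells (log2 difference -0.79, adjusted p = 0.422). Il33, an alarmin of the IL-1 family, had 3.72 and 3.91 CPM in wt and 1.92 and 1.84 CPM in Treml4-/- cells (log2 difference -0.74, adjusted p = 0.258). Il1b had -0.52 (adjusted p = 0.756) and overlapped between the genotypes, and without wt replicate 2 its value was 0.020. Among 20 CC and CXC chemokines Ccl4, which draws in monocytes, had 215 and 234 CPM in wt and 151 and 159 CPM in Treml4-/- cells (log2 difference -0.53, adjusted p = 0.0993). It was a DEG with median of ratios scaling and with the correction for GC content and length. Cxcl3 had a log2 difference of 0.61, and the chemokine list as a whole a median of 0.015, which was below 0 under 6 of the alternatives.

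Effector genes of the interferon response had small differences. The median was -0.070 over 24 interferon-stimulated antiviral genes, among which Usp18, a brake on interferon signalling, had the value of largest size at -0.31. Of 15 genes of MHC class I and antigen processing 14 were negative, with a median of -0.16 that was -0.085 without wt replicate 2. H2-Q6 and H2-Q7, non-classical class I genes of near-identical sequence whose reads could be split, had -0.91 and -0.88 (adjusted p = 0.590 and 0.400). Both had wt libraries far apart, with 8.27 and 25.2 CPM for H2-Q6. Without wt replicate 1, which leaves 1 wt library, the values were -1.66 and -1.44. Ciita, the master factor of MHC class II genes, had 11.9 and 14.0 CPM in wt and 20.4 and 22.8 CPM in Treml4-/- cells (log2 difference 0.70, adjusted p = 0.126). The 10 markers of M1 polarization had a median of -0.25, which was -0.12 without wt replicate 2. The 5 tested markers of M2 polarization had a median of 0.52, which was -0.041 without wt replicate 2, with Arg1 at 0.52 and -0.62 without that library and Mrc1 at 0.56 and -0.041 without it.

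Some matrix and coagulation genes, of which a part is given, had wide differences in both directions. Plau, the urokinase that activates plasminogen, had 51.0 and 27.8 CPM in wt and 62.0 and 67.2 CPM in Treml4-/- cells (log2 difference 0.76, adjusted p = 0.422). Timp1, an inhibitor of matrix metalloproteinases, had 110 and 125 CPM in wt and 55.0 and 65.5 CPM in Treml4-/- cells (log2 difference -0.95, adjusted p = 0.156). Mmp12, the macrophage elastase, had 0.59 (adjusted p = 0.479). The thrombospondins Thbs4 and Thbs1 had -0.76 and -0.61 (adjusted p = 0.141 and 0.480), and tissue factor (F3) had -0.58. Of 10 osteoclast genes 8 were positive, beside 64.4% of all tested genes, with a median of 0.17, led by Spp1 (osteopontin) at 0.64 and Tnfrsf11a (RANK) at 0.45. Without wt replicate 1, which leaves 1 wt library, the values were 1.19 for Plau and 0.87 for Spp1. For Plau the library left out, with 51.0 CPM, was the wt one nearer to the Treml4-/- libraries.

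Metabolic lists differed in sign. Of 17 glycolysis genes 16 were negative, with a median of -0.15, and 13 (76.5%) had both Treml4-/- libraries below both wt libraries, beside 12.3% of all tested genes. High shares by this measure were not particular to glycolysis. They were 68.4% for HIF-1 and hypoxia targets, 66.7% for MHC class I genes and 49.0% for cytosolic ribosomal proteins. AP-1 factors and interferon-stimulated genes each had 50%, whereas osteoclast genes and cholesterol synthesis and uptake had 0%. Pfkl, of phosphofructokinase, had -0.27 and the glucose transporter Slc2a1 -0.24, with 1166 and 1116 CPM in wt and 962 and 965 CPM in Treml4-/- cells. Of 19 HIF-1 and hypoxia targets 16 were negative, with a median of -0.21, among them Vegfa at -0.54, Adm at -0.52 and Hilpda at -0.48. Without wt replicate 1, which leaves 1 wt library, the value for Vegfa was -0.82. Of 16 genes of cholesterol synthesis and uptake 16 were positive, with a median of 0.22, led by Sqle (squalene epoxidase) with 4.68 and 4.29 CPM in wt and 6.96 and 5.73 CPM in Treml4-/- cells. These genes are weakly expressed after LPS, with a median level of 9.17 CPM over the list. Of 14 lipid droplet and lipase genes 10 were positive, a share near the 64.4% of all tested genes, with a median of 0.15. Among them were Cav1 at 0.62 and Lpl (lipoprotein lipase) at 0.56. Lpl had 693 and 658 CPM in wt and 1079 and 927 CPM in Treml4-/- cells (adjusted p = 0.116, limma). The metallothioneins Mt1 and Mt2 had -0.50 and -0.69 (adjusted p = 0.116 and 0.281).

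**Figure D5:**
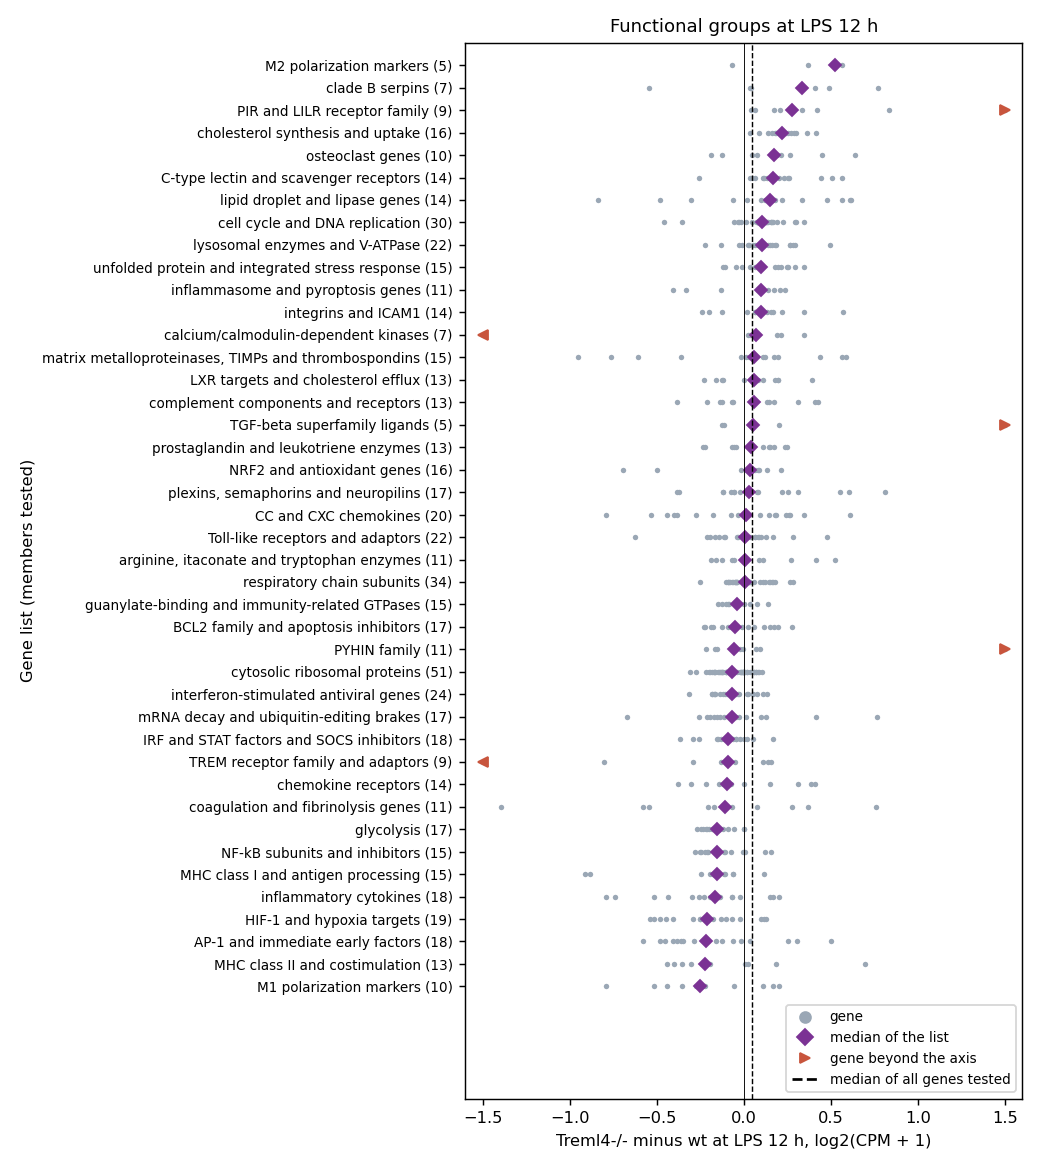
Genotype difference at LPS 12 h, Treml4-/- minus wt in log2(CPM + 1), of the members (grey) of each functional list with at least 5 genes tested, with list medians (purple), the number of members tested in brackets and genes beyond the axis as red triangles. Medians run from -0.25 for M1 polarization markers to 0.52 for M2 polarization markers, around 0.049 for all tested genes (dashed line).

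Outside the lists, several wide differences were not DEG. Slc15a2, a peptide transporter, had 0.556 and 0.179 CPM in wt and 2.48 and 9.15 CPM in Treml4-/- cells, with a log2 difference of 2.13 ± 0.77 (SE, adjusted p = 0.512, limma) and Treml4-/- replicates far apart. Tgfbi, a secreted adhesion protein, had 512 and 261 CPM in wt and 805 and 686 CPM in Treml4-/- cells (log2 difference 1.02, adjusted p = 0.302). Tsc22d3 (GILZ), which glucocorticoids induce, had 0.93 and the secreted protein gene Angptl2 had 0.92. Ch25h, the enzyme that makes 25-hydroxycholesterol, had 72.6 and 124 CPM in wt and 41.0 and 46.1 CPM in Treml4-/- cells (log2 difference -1.11, adjusted p = 0.134). Fbrsl1 had 39.4 and 47.1 CPM in wt and 24.0 and 25.6 CPM in Treml4-/- cells (log2 difference -0.77, adjusted p = 0.0561), just outside the threshold, and was a DEG with median of ratios scaling, quantile normalization or the GC correction. Of these, Tgfbi (1.51), Tsc22d3 (1.37), Angptl2 (1.21) and Fbrsl1 (-0.90) were DEG without wt replicate 1.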

How the data were processed

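Polyadenylated RNA of BMDM was sequenced (stranded, paired-end, 126 bases). Per the labels and the methods, the authors aligned reads to mm10 with STAR, counted them per gene with Subread in a core facility workflow that also held edgeR, DESeq2 and limma, and deposited log2 CPM for 43280 genes. The annotation, and whether counting used strand, are not given in the sources used here. The deposited log2 values, with a prior of 0.25 reads, were turned back into reads, whole within 0.01 for 100% of values, and into CPM. The design had assumed CPM.

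Groups came from the sample labels. log2(CPM + 1) was fitted with limma 3.58.1 (R 4.3.3), 1 mean for each of the 6 groups over all 12 libraries, with a trend in the prior variance, for the 12086 genes that reached 1 CPM in 2 or more libraries. P-values, two-sided, were adjusted by Benjamini-Hochberg over all of them, and DEG needed an adjusted p under 0.05 and at least 1.4-fold, the study's thresholds. With 2 replicates a group an exact permutation test could not reach these. The fit was tested on simulated data with the same biological spread for every gene and library. The real replicates had unequal spread, so that test does not cover this point. Reads cover counting error only, and 1 library held 48008751 to 58500792. Replicates differed by more than sampling noise (chi-square per degree of freedom 12.0 or more) and were kept apart.

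Positions are from GENCODE M21 (GRCm38, the assembly of mm10) and cover 40321 symbols, 953 through another symbol. Promoters are from RefSeq (GRCm38.p6), where the 4 genes shown matched. Windows of 126 bases were compared exactly, on the transcript strand, over all GENCODE transcripts. Tables were handled in Python 3.11.15, numpy 2.4.6 and pandas 2.3.3.

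The comparison, its gene lists and the tests were chosen with earlier results of these data known. Named were Treml4, all DEG at 12 h, DEG of the lists and up to 3 further members with the largest absolute log2 difference, the leading genes of the contrasts between times, the 10 largest differences in each direction that were not DEG, and genes the study's text names, of which a part is given. The paralogs Pydc4, Gm15922, Pirb and Zfp932 were picked with their values known. Tried as alternatives were a pseudocount of 0.1, a filter at 5 CPM or none, quantile normalization, scaling by the median of ratios, no trend, the 4 libraries alone, the deposited log2 CPM, voom on the recovered reads, replicate blocks, culture as a random block, no minimum fold and leaving out each replicate. A correction for GC content and length, a block crossed at M0, and the scalings of the LPS response and the settings for Pydc3 at M0, were added after seeing the data. Some genes that the rule names are not reported here.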

Additional observations from a re-analysis of the deposited data

Results flagged for a closer look

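The genotype difference of Pydc3 changed with the state of the cells on the log2(CPM + 1) scale, by a test of that change itself, while the call was lost on the deposited log2 CPM and with voom. It was larger at 12 h than at M0 by 5.39 on the log2(CPM + 1) scale (limma, Benjamini-Hochberg adjusted p = 1.7e-07), and larger at 12 h than the mean of M0 and 8 h by 3.197 (adjusted p = 9.75e-06). On the deposited log2 CPM these values were 2.58 and 1.89 (adjusted p = 0.867 and 1), and with voom 2.74 and 1.97 (adjusted p = 1 for both), so that neither call held. With a pseudocount of 0.1 both did (4.04 and 2.61, adjusted p = 1.58e-04 and 0.00342). On log2(CPM + 1), in each of these tests 1 of 12086 genes (0.00827%) passed. Both Treml4-/- libraries were above both wt libraries at M0, at 8 h and at 12 h. Groups held 2 libraries, too few to look for single libraries that stand apart within a group.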

How the results depend on the processing

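The 16 DEG at LPS 12 h became 8 with the 4 libraries alone, 10 with voom and 10 with the replicate number as a block within each time, and 6 to 79 when 1 library of the 4 was left out. The other settings gave 11 to 21. The split of higher to lower was 10 to 6, but 8 to 12 with median of ratios scaling, 6 to 10 with quantile normalization, 10 to 11 with the correction for GC content and length, 9 to 3 on the deposited log2 CPM and 5 to 5 with voom. The 1 DEG between the effects at 12 h and M0 became 0 on the deposited log2 CPM and with voom, 2 with quantile normalization (Treml4 added), and 1 to 33 without 1 library. Without wt M0 replicate 1 it was 33, and without wt M0 replicate 2 it was 3. Against the mean of M0 and 8 h it became 0 on the deposited log2 CPM and with voom, and 2 with quantile normalization and with scaling by the median of ratios. The causes were not tested. Pirb turned to -0.055 with the correction for GC content and length and -0.050 with median of ratios scaling. Without 1 library at 12 h, Arg1 ranged from -0.62 to 1.67, Il1b from -1.05 to 0.020, Mrc1 from -0.041 to 1.17 and Pydc4 from -0.15 to 0.10.

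Replicate numbers are shared between the genotypes but no pairing was stated. Deviations of same-numbered libraries correlated at -0.26 at M0, 0.30 at 8 h and 0.056 at 12 h, over genes. With the number as a replicate block 15 genes were DEG, and with the block within times crossed at M0, chosen after seeing these values, 19. In the main fit no log2 difference under about 0.6 was called at this depth and replication, and 3 reads limit levels near 0. With the correction for GC content and length Plxnd1 was called at 0.57 (adjusted p = 0.0133, limma), so 0.6 is no fixed limit.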
